A study of Mus musculus with 3 samples.

Results

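The gene expression of empty-vector Hepa1c1c7 cells was described from 1 array. Hepa1c1c7 is a mouse hepatoma line, a culture of liver tumour cells that grows continuously. The series used this line after transfection with vectors for Cd74 or Tmem54, or with the vector alone (empty), and total RNA of each transfection was labelled with Cy3 and put on 1 Agilent mouse array of 1 colour. The empty-vector array is the control of the series, and it is described here gene by gene and not against the other vectors. It is 1 of 3 arrays, of 1 line, with no replicate culture, so no difference was tested. With 1 array, the spread between cultures is unknown.

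The genes were ranked within this array by the log2 processed signal of their brightest probe, after control spots and spots with an outlier flag had been left out. A gene was called detected where that probe was flagged as well above background. The array gave a value for 36867 gene names, and 20716 of them (56.2%) were detected. Among the 20456 names that matched a RefSeq protein-coding gene, 13828 (67.6%) were detected. A signal depends on the probe as well as on the RNA, so a rank here is a rank of signals and not of RNA amounts.

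Hepatocytes secrete most plasma proteins, make urea and bile acids, store and release glucose, and oxidise drugs with cytochromes P450. A network of transcription factors that includes HNF4A, the FOXA proteins and the C/EBP proteins maintains these functions. Hepatoma lines divide without pause and keep such functions to varying degrees, and many return to fetal products such as alpha-fetoprotein. Hepa1c1c7 itself is widely used to study the aryl hydrocarbon receptor, which induces Cyp1a1.

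Promoters of 4 genes are shown first because they span the contrast on which the description turns. Alb, Afp and Afm encode albumin, alpha-fetoprotein and afamin, and they follow each other on chromosome 5 in RefSeq. Alb and Afp were detected, with signals of 5727 and 25519, and Afm was not well above background, at 3.04. Mcm6, a subunit of the replicative helicase, was detected at 58115, with 1154 on its second probe. Each sequence runs from 250 bases before to 50 bases after the annotated start, and is taken from RefSeq, build GRCm38.p6. Capitals mark CG dinucleotides. The intervals are chr5:90460620-90460919 (plus strand) for Alb, chr5:90490464-90490763 (plus) for Afp, chr5:90518699-90518998 (plus) for Afm and chr1:128359656-128359955 (minus) for Mcm6.
Alb: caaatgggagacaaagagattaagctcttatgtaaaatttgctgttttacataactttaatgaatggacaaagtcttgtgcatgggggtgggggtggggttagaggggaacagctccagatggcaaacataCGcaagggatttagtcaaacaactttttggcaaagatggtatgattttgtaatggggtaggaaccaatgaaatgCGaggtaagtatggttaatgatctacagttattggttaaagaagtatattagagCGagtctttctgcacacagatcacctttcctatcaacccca
Afp: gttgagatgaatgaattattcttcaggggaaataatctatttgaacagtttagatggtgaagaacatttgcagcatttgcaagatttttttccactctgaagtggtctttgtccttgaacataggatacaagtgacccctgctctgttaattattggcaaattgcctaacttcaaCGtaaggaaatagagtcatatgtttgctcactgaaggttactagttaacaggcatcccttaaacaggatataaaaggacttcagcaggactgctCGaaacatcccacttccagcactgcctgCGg
Afm: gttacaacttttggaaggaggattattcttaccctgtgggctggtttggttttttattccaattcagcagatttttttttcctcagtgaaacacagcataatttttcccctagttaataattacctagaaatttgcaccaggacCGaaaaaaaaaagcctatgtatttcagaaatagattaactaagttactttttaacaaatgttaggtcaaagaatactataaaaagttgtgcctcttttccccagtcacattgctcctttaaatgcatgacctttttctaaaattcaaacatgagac
Mcm6: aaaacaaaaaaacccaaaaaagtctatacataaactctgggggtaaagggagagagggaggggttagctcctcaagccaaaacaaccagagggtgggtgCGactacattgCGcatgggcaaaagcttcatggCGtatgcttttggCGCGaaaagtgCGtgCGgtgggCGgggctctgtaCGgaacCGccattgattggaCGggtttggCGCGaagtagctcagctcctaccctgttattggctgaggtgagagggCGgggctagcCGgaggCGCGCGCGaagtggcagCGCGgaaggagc
The 3 promoters of the albumin family held 3, 3 and 1 CG dinucleotides, and that of Mcm6 held 21. The ratio of observed to expected CG was 0.27 for Alb, 0.25 for Afp, 0.12 for Afm and 0.93 for Mcm6. A low ratio therefore stood beside both a bright and a dim signal within this family.

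Detection on this array was permissive. Of 1410 genes for chemosensory receptors (olfactory, vomeronasal, taste and trace amine receptors), which are known from sensory neurons, 209 (14.8%) were detected, and the brightest, Olfr1033, had a signal of 54610. The 95th percentile of these genes was a signal of 49.4, used below as a second and stricter limit that was added after the data were seen and is called the chemosensory floor. Above it lay 16440 of all names (44.6%) and 58.6% of the protein-coding genes. Detected signals ranged from 13.1 to 449950 with a median of 558, and genes not well above background had a median of 3.08, near the median of 2.92 over 308 negative control spots. No spot was saturated (0 spots). For 300 probes printed 10 times, the median SD between spots was 0.036 (log2) over the 288 that were detected.

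**Figure D1:**
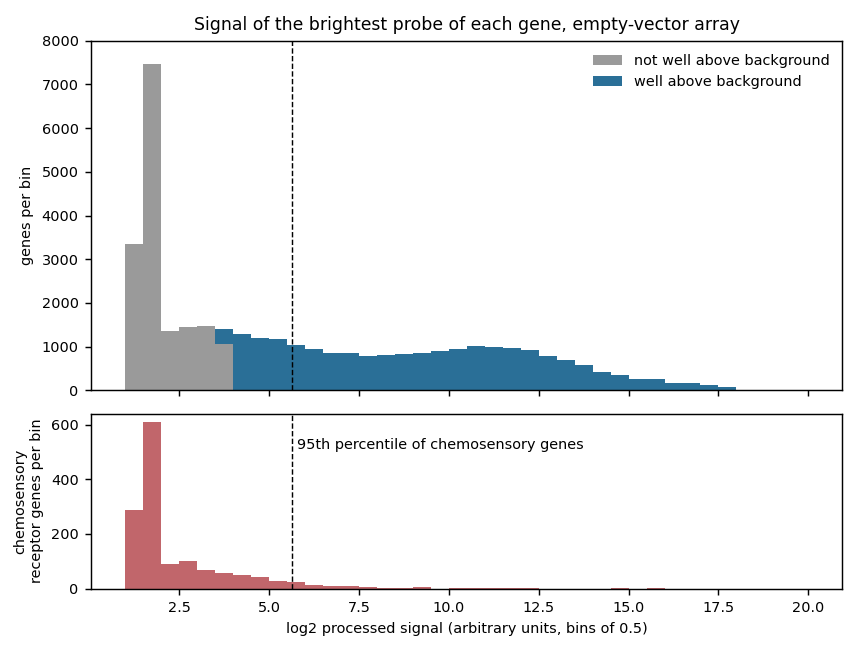
The upper panel counts genes by the log2 processed signal of their brightest probe in bins of 0.5, in grey where that probe was not well above background and in blue where it was. The lower panel counts the 1410 chemosensory receptor genes in the same bins, and the dashed line marks their 95th percentile, a signal of 49.4. Most chemosensory genes lie in the grey range, and 209 were detected.

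Genes with several probes often gave unequal signals. Among 9370 detected genes with more than 1 probe, the next probe was at least 10-fold dimmer for 3765 (40.2%) and was itself not well above background for 2414. Values of the next probe are given below for some genes only. A gene given with 1 value may have 1 probe, or further probes that are much dimmer. Rela, for example, gave 25751 and 212 on the next probe, Hif1a 15939 and 59.8, and Tap2 2813 and 14.1.

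The brightest signals came from the translation machinery, the cytoskeleton and keratins. Rn18s, the 18S ribosomal RNA, ranked first at 449950. Rpl41, Rpl37a, Rplp2, Rps10, Rps14, Rps26 and the retrogene Rpl37rt, all of ribosomal protein type, stood among the 20 brightest names with signals between 255289 and 369438. Ppia, the cyclophilin A gene, gave 350472, the tubulin gene Tuba1b 316518 and the actin gene Actb 277539. Krt18, a keratin of simple epithelia and hepatocytes, ranked 8th of all names at 273830. Grn, which encodes the secreted growth factor progranulin, gave 252474, and Ftl1, the ferritin light chain, 251508. A further 2 names in this range rested on 1 probe only. A430078G23Rik had a signal of 364404 on one probe and 2.71 on the other, and Cnbd2 had 254127 on its brightest probe and 99.7 on the next. The remaining 4 of the 20 are AK140265, NAP111752-1, NAP092679-001 and ENSMUST00000146791, which are design names with no RefSeq gene here. Of the 100 brightest protein-coding genes, 32 encode ribosomal proteins.

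The liver lists were mixed, while most proliferation and stress genes were detected. Of 473 genes in 16 liver lists, 321 (67.9%) were detected and 255 (53.9%) lay above the chemosensory floor. The share of protein-coding genes above that floor was 58.6%. The median signal percentile of the liver genes was 59.4 among all names. The same percentile was 64.8 over all protein-coding genes. Of 175 proliferation genes, 169 (96.6%) were detected, with a median percentile of 86.1. Of 183 stress genes, 162 (88.5%) were detected, with a median of 83.9. The lowest shares in these themes were 18 of 24 for cytosolic heat shock, 18 of 23 for the hypoxia response and 13 of 16 for cell cycle inhibitors. Of 313 immune genes, 232 (74.1%) were detected, with a median of 66.8. The detected share of the liver lists thus lay near the background of 67.6%. These lists include 25 carbohydrate genes of growing cells, 24 of them detected, and 37 of lipogenesis and sterol synthesis, 36 of them detected. Both raise the pooled share, and the account below goes by function because the lists differed widely.

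Transcription factors of the hepatocyte were present in part. Of 30, 22 (73.3%) were detected and 16 (53.3%) lay above the chemosensory floor, against 67.6% and 58.6% of protein-coding genes. These shares lie near that background, so the list as a whole did not stand out. Foxa2 and Foxa1, pioneer factors that open liver enhancers, had signals of 4856 and 2584. Cebpb, a C/EBP factor that also serves the acute phase response, gave 17031, and Rxra, the partner of many nuclear receptors, 10280. Gata4 and Hhex, factors of early liver development, gave 1146 and 631. Nr1h4, the bile acid receptor FXR, gave 402 and Nr1h3, the oxysterol receptor LXR alpha, 1142. Not well above background were Hnf4a (3.07 and 2.85 on its 2 probes), Cebpa (3.06), Nr1i2, the xenobiotic receptor PXR (2.89), Ppara, the fatty acid receptor (6.54), Prox1 (7.28), Nr5a2 (4.6), Nr0b2 (3.62) and Gata6 (3.67). Each of these 8 also failed the flag on both other arrays of the series. The array thus showed the FOXA part of the network and gave no signal above background for HNF4A and C/EBP alpha.

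Secreted carrier proteins divided in the same manner. Of 40 plasma carriers and apolipoproteins, 22 (55.0%) were detected and 12 (30.0%) exceeded the chemosensory floor, against 67.6% and 58.6% of protein-coding genes. Rbp4, which carries retinol, gave 63882, and Trf, transferrin, 47713. Alpha-fetoprotein, the main serum protein of the fetus, gave 25519 with the probe at chr5:90937781-90937840 (build mm9, as for all probe positions). Albumin gave 5727 on the probe at chr5:90905550-90905609 and 2803 on its second probe. Cp, the copper carrier ceruloplasmin, gave 11223 and Apoa2, an apolipoprotein of HDL, 3129. Apoe, an apolipoprotein that binds remnant receptors, gave 455. Not well above background were Apoa1 (3.12) and Apob (3.0), the structural proteins of HDL and of VLDL, Ttr, the thyroxine carrier transthyretin (7.88), Ahsg, fetuin A (3.72), Gc, the vitamin D carrier (2.86), and Serpina3k (2.97). The alpha-1-antitrypsin copies were dim, with 187 for Serpina1b, 50.2 for Serpina1e and 36.6 for Serpina1a. These copies are near-identical, so their signals may not be separate.

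Coagulation factors, made almost wholly by hepatocytes in the animal, were largely dim. Of 23 factors and inhibitors, 12 (52.2%) were detected, and 4 (17.4%) lay above the chemosensory floor, against 67.6% and 58.6% of protein-coding genes. Pros1, the anticoagulant protein S, was the exception at 11670. Kng1, kininogen, gave 148, F5, the cofactor of prothrombinase, 123 and Serpinc1, antithrombin, 53.3. Prothrombin (F2) gave 2.62, F7 2.96, F9 3.01 and F10 2.87, and none of these 4 vitamin K-dependent factors was well above background. Of the fibrinogen chains, Fga passed the flag at 28.2, and Fgb (4.27) and Fgg (3.17) did not. Plg, plasminogen, gave 10.7 and was not called. Proz (8.16), Serpind1 (3.75), F12 (3.23) and F13b (2.65) were not called either.

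Of 22 complement genes, 13 (59.1%) were detected and 9 (40.9%) lay above the chemosensory floor, against 67.6% and 58.6% of protein-coding genes. C3, on which all activation routes converge, gave 37678 and 16201 on its 2 probes. C1s1 and C1ra, the proteases of C1, gave 14066 and 1850, and C2 gave 3538. The recognition subunits of C1, counted here with the macrophage markers, were dim, with C1qb at 38.2, below that floor, and C1qa (4.0) and C1qc (3.05) not called. Cfi, which cleaves C3b, gave 1164. The terminal components C8a (3.05), C8b (3.05) and Hc, which encodes C5 (2.75), the mannose-binding lectins Mbl1 (2.65) and Mbl2 (3.08), and C6 (9.09), C4bp (4.36) and Cfd (3.11) were not well above background.

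Acute phase genes gave 15 of 23 detected (65.2%), near the 67.6% of protein-coding genes. Only 9 (39.1%) lay above the chemosensory floor, against 58.6% of protein-coding genes. Metallothioneins Mt1 and Mt2, which bind zinc and copper, gave 93525 and 30849, although the second Mt1 probe gave 97.3. Lcn2, a siderophore-binding protein, gave 7284, Fgl1, a hepatocyte-secreted fibrinogen-like protein, 7567 and Lbp, which hands lipopolysaccharide to CD14, 1759. The serum amyloid genes Saa3 and Saa1 gave 429 and 212. Hp, haptoglobin, at 20.4 and Hpx, hemopexin, at 19.5 passed the flag below the chemosensory floor. Orm1 and Orm2 (5.93 and 2.78), Hamp, the iron hormone hepcidin (2.86), Hamp2 (12.6), Saa2 (15.2), Saa4 (8.27), Apcs (5.91) and Serpina3n (2.64) did not pass it.

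Of 13 genes of the aryl hydrocarbon receptor pathway, 10 (76.9%) were detected, against 67.6% of protein-coding genes, and 9 lay above the chemosensory floor. Ahr gave 2618 on one probe and 12.2 on the other and its partner Arnt 913. Among the targets, Cyp1a1 gave 1529 (probe chr9:57551535-57551594), Aldh3a1 3709, Tiparp 1293 and Nqo1 482. Cyp1b1 gave 30.0, below the chemosensory floor. Cyp1a2, the constitutive CYP1A form of adult liver, gave 3.20 and the repressor Ahrr 4.01, both not well above background. The third such member was Ugt1a6a, a glucuronosyltransferase, at 2.68, while its neighbour copy Ugt1a6b gave 2956. No inducer is named for these cells.

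Drug-metabolising P450 genes were the least detected of the 16 liver lists, with 18 of 41 detected (43.9%) and 9 above the chemosensory floor. Por, the reductase that feeds electrons to all of these enzymes, gave 14724. Cyp2s1 and Cyp2r1, forms not specific to liver, gave 1746 and 451. Cyp2u1 gave 130640 on one probe, with 64.2 on the next. The abundant adult liver forms Cyp2c29 (2.61), Cyp2b10 (2.82), Cyp2d22 (2.83), Cyp2a5 (8.42), Cyp2f2 (11.6) and Cyp3a11 (14.1) were not well above background, and Cyp2e1 was just over it at 17.7. By gene name, 43 of the 102 P450 genes on the array (42.2%) were detected.

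Of 42 conjugating enzymes, 28 (66.7%) were detected and 25 (59.5%) exceeded the chemosensory floor, close to the 67.6% and 58.6% of protein-coding genes. Glutathione transferases led, with Gsto1 at 123001, Gstm3 at 17046, Gstm1 at 12073 and Gstp1 at 5344. Ephx1, the microsomal epoxide hydrolase, gave 48486, Mgst2, a microsomal glutathione transferase, 14046, and Mgst1 gave 13953. The sulfotransferases Sult1a1 (6.04), Sult2a1 (2.79), Sult1b1 (2.96) and Sult1d1 (3.12), and the glucuronosyltransferases Ugt2b1 (3.08), Ugt2b5 (2.64), Ugt2b35 (2.80) and Ugt2b36 (4.0), were not well above background. Ugt2b34 was detected at 592.

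Of 43 genes of the urea cycle and amino acid breakdown, 28 (65.1%) were detected, a share near the background of 67.6%. Above the chemosensory floor lay 20 (46.5%), against 58.6% of protein-coding genes. Ass1 and Asl, the cytosolic steps that make and split argininosuccinate, gave 7476 and 2253. Cps1 (9.61), Otc (2.93) and Arg1 (3.03), the first, second and last steps of the cycle, and Nags (3.06), which makes the cofactor of CPS1, were not well above background. Hpd (3.06) and Hgd (2.80), steps of tyrosine breakdown, were likewise not called, while Tat, tyrosine aminotransferase, gave 67.9 and Fah, the last step, 558. Mat1a (3.02) and Bhmt (2.95) of methionine metabolism were not called, and Mat2a, the extrahepatic form, gave 27702. Glul, glutamine synthetase, gave 3418.

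Among carbohydrate enzymes, the general isozyme was often detected where the liver isozyme was not. Of 21 adult liver carbohydrate genes, 11 (52.4%) were detected, against 67.6% of protein-coding genes. Of 25 genes for glycolysis, the pentose phosphate route and glucose uptake in growing cells, 24 were detected, all above the chemosensory floor. Gapdh gave 176704, Ldha 152046, Aldoa 143074, Pgk1 142509 and Hk1 108661 (with 9992 on its next probe). Tktl1, a transketolase-like gene, was the one not called (3.09). Among 11 pairs of a liver form and a general form, which were put together after the values were seen, 9 had the liver form not well above background and the general form detected. Pklr gave 6.14 beside 87818 for Pkm, and Slc2a2 8.20 beside 7991 for Slc2a1. Gys2, Pygl and Pck1 gave 2.86, 8.25 and 3.61, with Gys1, Pygb and Pck2 at 1259, 927 and 1716. The other two pairs were detected on both sides. Fbp1, of gluconeogenesis, gave 3.1 and was not called, and G6pc, glucose-6-phosphatase, gave 17.5. Fbp2 (2.74), Gckr (7.07) and Ppp1r3c (8.62) were not called.

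Bile acid genes were detected for the widely expressed peroxisomal and oxidative steps. Of 30, 16 (53.3%) were detected, against 67.6% of protein-coding genes. Hsd17b4 and Scp2, peroxisomal enzymes of side-chain shortening, gave 9509 and 6015, and Hsd3b7 and Amacr 3164 and 2768. Cyp7a1 (10.9), the rate-limiting enzyme of the classical route, Cyp8b1 (2.75), which is needed for cholic acid, Baat (9.17), which conjugates bile acids to amino acids, and the export pump Abcb11 (6.79) were not well above background. Cyp7b1 and Cyp27a1 of the alternative route gave 610 and 141. Slc10a1, the bile acid importer NTCP, had 163869 on the probe at chr12:82056539-82056598 and 2.91 on its other probe. Its detection rests on that 1 probe.

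Lipid genes were well represented. Of 37 genes of lipogenesis and sterol synthesis, 36 were detected, all above the chemosensory floor. Fasn, fatty acid synthase, gave 43196, Scd2, a desaturase, 37654, Acly, which makes cytosolic acetyl-CoA, 26017, Fdps 23424 and Sqle 22123. Of 30 genes of fatty acid oxidation and ketogenesis, 26 were detected. Acaa2 gave 13237, Acadm 6703 and Cpt1a, the gate to mitochondrial oxidation, 5333. Fabp1, the liver fatty acid binding protein, gave 3.14 and Fgf21, a fasting hormone, 2.83, and neither was well above background, nor was Bdh1 (13.8). Hmgcs1, the cytosolic synthase of the sterol route, gave 8256.

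Fetal and tumour-associated genes were selective. Of 28 oncofetal and imprinted genes, 21 were detected. Hmga1, a chromatin protein of embryonic and tumour cells, gave 120941 (1170 on its next probe). The RNA-binding proteins Igf2bp3 and Igf2bp1 gave 6588 and 6072, and Igf2bp2 gave 14.2 and was not called. Afp is given above. Gpc3, a glypican used as a hepatoma marker, gave 1013 on one probe and 3.1 on the other. Igf2 (9.77) and H19 (4.86), a pair of imprinted fetal liver genes, Lin28b (7.88), Peg10 (5.83), Mest (3.1) and Cdkn1c (8.01) were not well above background. Among 34 hepatokine, growth hormone and iron genes, 26 (76.5%) were detected and 21 (61.8%) lay above that floor, against the same background. Ftl1 and Fth1 of ferritin gave 251508 and 194245, Met, the receptor for hepatocyte growth factor, 10858, Igfbp3 7763 and Tfrc, the transferrin receptor, 3845. Igfbp1 (14.0), Klb, the coreceptor of FGF21 (10.4), Hfe2, the hepcidin regulator hemojuvelin (2.65), Epo (6.05) and Serpinf1 (10.8) were not called, nor were Hamp and Fgf21, which other lists share.

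**Figure D2:**
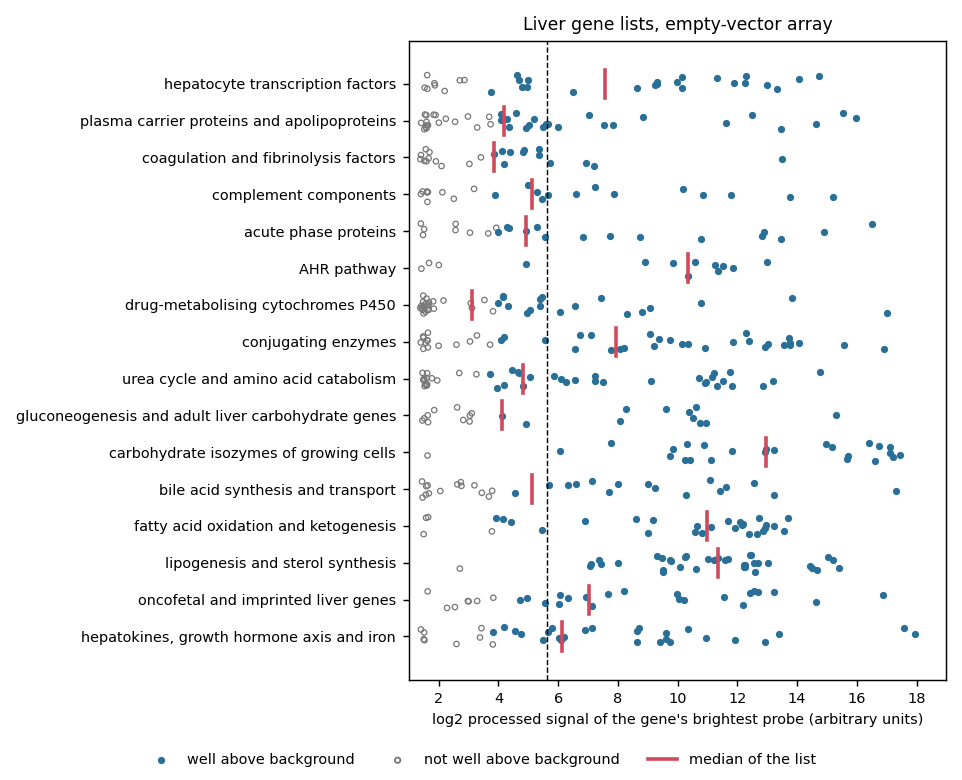
Each point is 1 gene of a liver list at the log2 processed signal of its brightest probe on the empty-vector array, filled where well above background and open where not. Red bars mark the median of each list and the dashed line the chemosensory floor. The medians of P450 and coagulation genes (3.12 and 3.85) lie left of the line, and those of sterol synthesis and growth-type carbohydrate genes (11.34 and 12.96) lie far to its right.

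The replication and division machinery was detected completely. All 42 DNA replication genes and all 35 mitosis genes were detected, and all of both lists lay above the chemosensory floor. Median signal percentiles were 92.7 and 92.0. The lowest signals in these lists were 192 for Pola2, a subunit of primase-polymerase alpha, and 735 for Ttk, a spindle checkpoint kinase. Mcm6 gave 58115, Mcm3 43495, the licensing factor Cdt1 28597, Pcna, the polymerase clamp, 18134, and Rrm2 of ribonucleotide reductase 21327. Birc5, survivin, gave 49377, Cdc20 30926, Plk1 27806, Aurka 24042, Mki67, a proliferation marker, 15635, and Top2a 15249. Of 28 G1/S genes, 26 were detected. Cdk4 gave 81933, Ccnd1, cyclin D1, 38794, Ccne1 9740, Myc 7984 and E2f1 3329. Ccnd2 (11.1) and Mycn (3.1) were the members not called.

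Cell cycle inhibitors were detected in part. Of 16, 13 were detected, all above the chemosensory floor. Cdkn1a, p21, gave 6109, Cdkn1b, p27, 2527, Cdkn2c 3459 and Cdkn2d 4143. Cdkn2a, which encodes p16INK4a and p19ARF (2.74 and 2.69 on 2 probes), its neighbour Cdkn2b (3.86) and Cdkn1c (8.01) were not well above background. Trp53 itself gave 5013, and 29 of 30 genes of the p53 list were detected. Mdm2, the ligase that p53 induces against itself, gave 45126, Phlda3 39442, Bax 27249, Perp 25215 and Aen 16987. Trp53i11 was not called (5.00). All 29 telomere and repair genes were detected, with 12650 for Msh6, 1748 for Brca1 and 173 for Tert, the catalytic subunit of telomerase.

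Stress genes were bright for amino acid supply, protein folding and redox control. Of 30 genes of the ATF4 amino acid response, 28 were detected. Atf4 gave 63631, Phgdh, which opens serine synthesis, 71484, Psat1 20356, Asns, asparagine synthetase, 17966, Trib3, a pseudokinase of the same response, 3624, and Ddit3, CHOP, 1046. Stc2 (2.62) and Fgf21 were not called. Of 29 endoplasmic reticulum chaperone genes, 28 were detected, with 62313 for Hsp90b1, 54108 for Canx, 53046 for Pdia6, 41533 for Hspa5, which encodes the chaperone BiP, and 7831 for Xbp1. Derl3 was not called (2.99).

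Cytosolic heat shock genes were bright apart from the inducible HSP70 genes and some small heat shock genes. Of 24, 18 were detected, all above the chemosensory floor. Hsp90ab1 gave 136960, the constitutive HSP70 gene Hspa8 91874, and the mitochondrial chaperonins Hspd1 and Hspe1 98509 and 77011. The inducible HSP70 genes Hspa1a (5.34) and Hspa1b (6.73), Hspa1l (10.2), and the small heat shock genes Hspb1 (2.86), Hspb3 (7.93) and Hspb7 (3.18) were not well above background. Dnajb1 and Bag3, cochaperones that HSF1 also induces, gave 14564 and 11332, and Hsf1 gave 3554. Hspa1a and Hspa1b are near-identical copies, and each has 1 probe here.

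Antioxidant genes were detected for 31 of 35. Sod1 gave 127530 (311 on its second probe), Prdx6 115006, Prdx1 111785, Txn1, thioredoxin, 60379, and Sqstm1, p62, 43790. Nfe2l2, which encodes NRF2, gave 8105, Keap1, its inhibitor, 3767, Hmox1, heme oxygenase, 7550, and Gclm, of glutathione synthesis, 8975. Gpx3 (2.86), Gpx7 (2.72), Cbr3 (4.46) and Akr1b7 (10.1) were not called. Of 23 hypoxia genes, 18 were detected, with Hif1a at 15939, Egln1 at 9427 and Ndrg1 at 5764. Adm (9.20), Car12 (3.08), Epo (6.05), Hif3a (7.27) and Arnt2 (2.75) were not called. Of 31 immediate early genes, 29 were detected, led by Jund at 28645, Junb at 22339, Klf6 at 17409 and Ctgf at 16859, with Fos at 177 and Egr1 at 670. Egr3 (3.13) and Egr4 (2.74) were not called. Of 15 genes of metallothioneins and metal handling, 14 were detected, and the zinc exporter Slc30a10 was not (3.16).

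Antigen presentation genes were detected for class I and only in part for class II. All 25 class I genes were detected. B2m, the light chain of class I, gave 64833 (212 on its second probe), H2-D1 11945 and H2-K1 3148, the peptide transporters Tap1 and Tap2 1155 and 2813, and Tapbp, tapasin, 9223. H2 genes are close copies, and their probes may share signal. The immunoproteasome subunits gave 15143 for Psmb10, 199 for Psmb8 and 127 for Psmb9. Of 16 class II genes, 10 (62.5%) were detected and 7 (43.8%) lay above the chemosensory floor, against 67.6% and 58.6% of protein-coding genes. Cd74, the class II invariant chain and the gene that the series overexpresses in another array, gave 26.8 here, and Ciita, the master activator of class II genes, 29.7, both below that floor. H2-Aa (2.69) and H2-Ab1 (12.8), which encode the 2 chains of a class II molecule, were not well above background, whereas H2-Eb1 gave 1921. H2-Eb2 (4.80), H2-Oa (2.93), H2-DMb2 (2.74) and the protease gene Ctss (2.91) were not called.

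Genes of interferon sensing were detected, and the interferon genes themselves were dim or not called. Of 27 interferon and receptor genes, 22 (81.5%) were detected, against 67.6% of protein-coding genes. Ifngr1 gave 6626, Ifnar2 4156, Ifnar1 898, and the transcription factors Irf3 and Irf1 9050 and 4379. Ifng (2.87), Ifna4 (2.75), Ifne (2.90), Ifnk (15.2) and Irf4 (8.35) were not called, and Ifnl3 (102), Ifna1 (62.4), Ifna2 (32.5) and Ifnb1 (24.9) passed the flag. Of 42 interferon-stimulated genes, 36 (85.7%) were detected and 29 (69.0%) lay above the chemosensory floor, against 67.6% and 58.6% of protein-coding genes. Trim25 gave 53477, Ifitm3 19365, Ifi27 18744, Bst2, tetherin, 11780, and Isg15 1041. The oligoadenylate synthetases Oas1b and Oas1a gave 12632 and 4763, Usp18 1767 and Ifit2 402. Ifit1 (22.5), Mx1 (26.1), Ifit3 (43.7) and Oas3 (16.7) passed the flag below that floor, and Rsad2 (10.9), Iigp1 (5.97), Ifi44 (12.5), Gbp4 (2.86), Gbp7 (12.3) and Ifitm1 (2.69) were not called.

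Most genes of innate sensing and all listed genes of NF-kB signalling were detected. The array measured RNA only, and pathway activity was not tested. All 23 NF-kB genes were detected above the chemosensory floor, with Rela at 25751, Nfkb2 at 16440, Nfkb1 at 15491, the inhibitor Nfkbia at 8140 and Tnfaip3, A20, at 3911. Of 33 nucleic acid and pattern receptors, 25 (75.8%) were detected, against 67.6% of protein-coding genes. Tmem173, which encodes STING, gave 8343, Mavs 5355, Ddx58, RIG-I, 2709, Tlr4 901, Tlr2 1193 and Cd14 2702. Mb21d1, which encodes the DNA sensor cGAS, gave 39.5, under the chemosensory floor. Nlrp3 (11.6), Tlr1 (3.09), Tlr6 (2.77), Nod2 (2.94), Clec7a (7.80), Nlrc4 (2.66), Tlr11 (2.74) and Tlr12 (2.64) were not well above background. Nlrp1a had 87251 on 1 of 3 probes and 3.84 on the next.

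Chemokines of the inflammatory kind were among the brightest immune genes. Of 37, 21 (56.8%) were detected and 17 (45.9%) lay above the chemosensory floor, against 67.6% and 58.6% of protein-coding genes. Ccl2, which recruits monocytes, gave 146693 with a single probe (chr11:81850650-81850709). Cxcl5, Cxcl3 and Cxcl1, neutrophil attractants, gave 30949, 14476 and 9268, and Ccl7 11250. Cxcl11, a ligand of CXCR3, gave 131229 and 3748 on its 2 probes, and Cxcl10, of the same group, 641 and 3.07. Cxcl9 (2.67), Cxcl12 (2.83), Ccl3 (2.99) and Ccl4 (9.84) were not called. Of 43 cytokines, 25 (58.1%) were detected and 18 (41.9%) lay above that floor, against the same background. Mif, a ligand of CD74, gave 33384, Csf1, the macrophage growth factor, 32663, Gdf15 11734, Tgfb1 1033, Tnf 178 (3.0 on its second probe) and Il6 58.9. Il1a (2.67), Il1b (3.01), Il10 (3.07), Il2 (7.55), Il4 (3.12), Il12a (3.11), Il12b (8.37) and Il17a (2.97) were not called.

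Receptors for several cytokines that act on hepatocytes were detected. Of 40 cytokine receptor genes, 29 (72.5%) were detected, near the 67.6% of protein-coding genes. Tnfrsf12a, the TWEAK receptor, gave 25961, Csf3r 21713, Il15ra 21492 (116 on its next probe), Ltbr 13408, Tnfrsf1a 12125, Il6ra 3496, its signalling partner Il6st 1358 and Tgfbr2 4200. Cxcr4 (5.36), Cd40 (4.25), Il10ra (3.31), Il18r1 (4.34), Ackr3 (3.06), Ccr2 (2.88), Cxcr2 (2.65), Il1r2 (3.1), Il2rb (6.28), Il17rb (6.07) and Il27ra (7.87) were not called. Of 29 checkpoint, adhesion and NK ligand genes, 18 (62.1%) were detected, against the same 67.6%. Pvrl2 and Pvr, ligands of DNAM-1 and TIGIT, gave 11788 and 5668, Cd47, the signal against phagocytosis, 9016, Vcam1 10945, Icam1 2627, and the NKG2D ligands H60b, H60a and Ulbp1 2350, 1911 and 615. Cd274, PD-L1, gave 157 and Pdcd1lg2, PD-L2, 98.7. Ido1 (6.79), Cd86 (3.15), Cd55 (12.5), Cd200 (3.06), Nt5e (3.02), Entpd1 (3.11), Icosl (2.83), Vtcn1 (2.79), Pvrl1 (3.06) were not called, nor were H60c and Arg1.

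**Figure D3:**
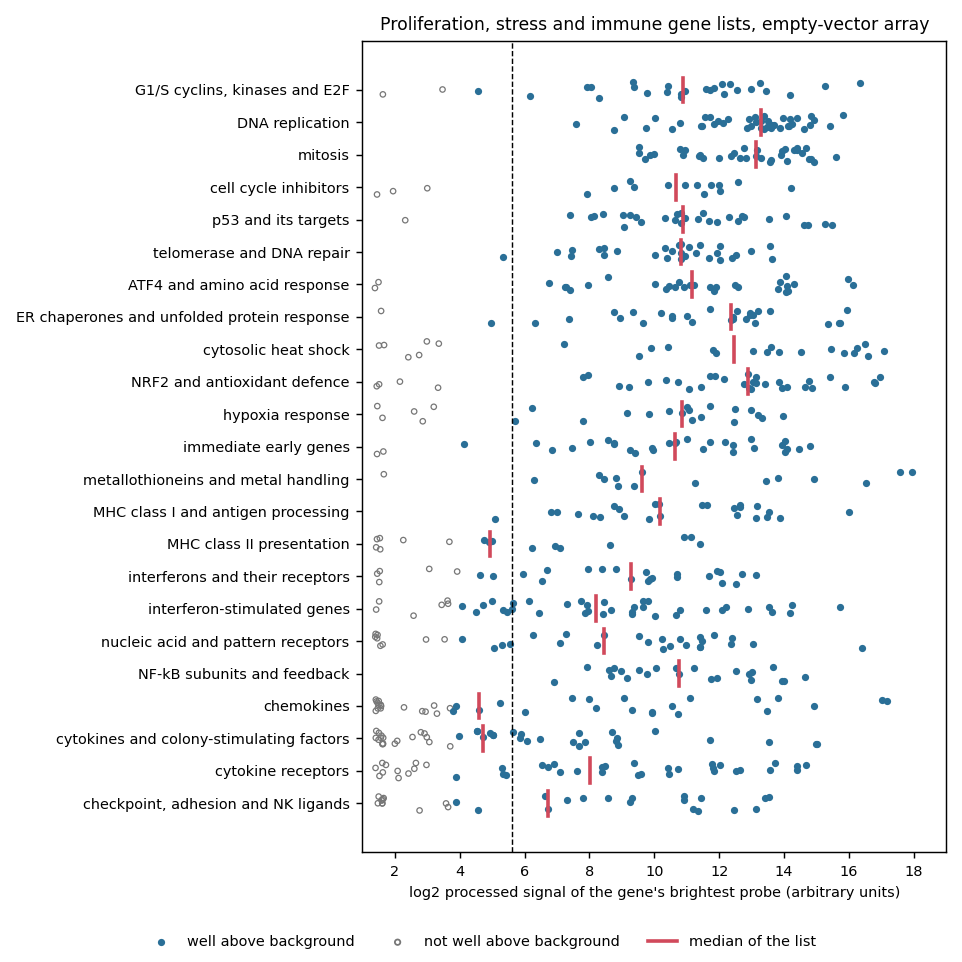
Each point is 1 gene of a proliferation, stress or immune list at the log2 processed signal of its brightest probe, filled where well above background and open where not. Red bars mark list medians and the dashed line the chemosensory floor. No open point appears in the replication, mitosis, repair, class I or NF-kB lists, while chemokines and cytokines have medians of 4.59 and 4.71, left of the line.

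Markers of other cell types checked the label of the line. Of 242 genes in 13 lists, 138 (57.0%) were detected and 93 (38.4%) lay above the chemosensory floor, against 67.6% and 58.6% of protein-coding genes. The bile duct list and the epithelial and mesenchymal list hold Krt8 and Krt18, which hepatocytes also express. The pooled share is therefore not of other lineages alone. Hepatocyte identity rested on Alb, Afp, Trf and Foxa2, which were detected, whereas Ttr, Apoa1, Apob and Hnf4a were not. Of 19 macrophage and Kupffer cell markers, 8 were detected and 7 lay above the chemosensory floor. Csf1r gave 3626 with 197 on its next probe, Itgam 2557 with 34.9, and Lyz2 1129 with 39.7. Cd68 gave 1186 on the brightest of its 3 probes and 331 on the next, and Lyz1 gave 228 on its 1 probe. Emr1 (3.09), Clec4f of Kupffer cells (2.66), C1qa (4.0), C1qc (3.05), Spi1 (2.99), Mrc1 (3.04), Timd4 (2.67), Tyrobp (3.76), Fcgr1 (3.18), Itgax (12.1) and Vsig4 (2.86) were not well above background. Of the 18 T and NK markers 11 were detected and 6 lay above the chemosensory floor. Cd8a (3.1), Cd3g (2.95), Ncr1 (2.90), Gzmb (2.70), Nkg7 (3.36), Klrb1c (9.26) and Zap70 (10.4) were not detected. Ptprc, CD45, gave 3711 on 1 of 7 probes and 29.2 on the next, Cd247 3287 and 12.6, and Cd4 1299 and 20.2. Cd3e gave 637 and 60.1 on its 2 probes, both detected, and Prf1 gave 270 on its 1 probe. Of 12 B cell markers, 6 were detected and 2 lay above the chemosensory floor, Cd22 at 95.1 and Cr2 at 54.7. Cd79a (6.73), Cd79b (2.90), Blk (7.08), Fcer2a (10.8), Tnfrsf17 (2.90) and Jchain (2.71) were not called. Of 17 endothelial markers, 11 were detected and 7 lay above the chemosensory floor, led by Egfl7 at 3208. Oit3 gave 118 with 3.07 on its other probe, and Eng 106 with 2.84. Cdh5 (4.87), Kdr (2.97), Tek (2.81), Tie1 (3.0), Emcn (2.93) and Ramp2 (3.06) were not called, and Pecam1 gave 49.7. Of 18 stellate cell and fibroblast markers, 11 were detected and 10 lay above the chemosensory floor. Among these were Dcn at 67724, Ecm1 at 14916, Acta2 at 13153 and Pdgfrb at 1286. On the next probe, Ecm1 gave 339 and Acta2 23.2. Lrat (3.07), Reln (3.05), Hand2 (7.64), Ngfr (6.55), Lum (3.01), Rgs5 (2.74) and Thy1 (2.62) were not called.

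Some keratin genes and some mesenchymal genes were bright. Krt8 and Krt18, the keratin pair of hepatocytes, gave 138516 and 273830, and Krt7, a keratin of bile ducts, 20474, with Krt19 at 104. Spp1, osteopontin, gave 17332 and Sox9, a bile duct and progenitor factor, 1710. Epcam (3.03) and Cdh1, E-cadherin (3.1), were not well above background. Cdh2, N-cadherin, gave 6332 on one probe and 11.1 on the other. Vim, vimentin, gave 72170, Sparc 116210, Fn1, fibronectin, 74822, Dcn, decorin, 67724, and Col1a1 8430. Snai1, Zeb1 and Zeb2, repressors of E-cadherin, gave 904, 581 and 476, and Snai2 (3.09) and Twist2 (2.68) were not called. The junction genes Ocln (11.5), Cldn1 (7.93), Gjb2 (2.69) and Cdh3 (2.70), and the proteases Mmp2 (15.2) and Mmp9 (4.57), were not called, while Cldn3 gave 15379 and Tjp1 4547. Of the bile duct list, Ggt1 (3.07), Sctr (3.04) and Muc1 (2.93) were not called either.

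**Figure D4:**
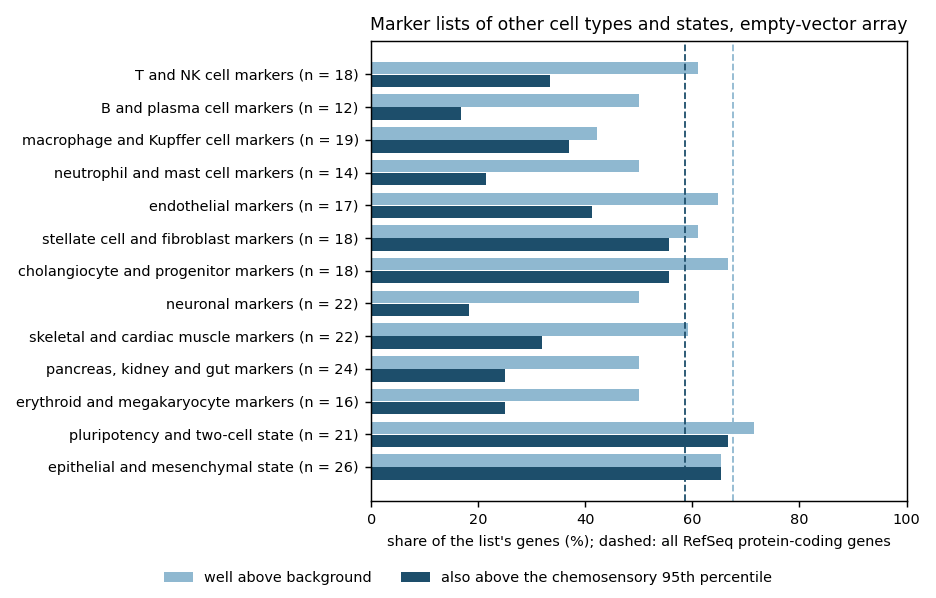
Bars give the percentage of each marker list that was well above background (light) and that also lay above the chemosensory floor (dark) on the empty-vector array, with the number of genes in parentheses. Dashed lines mark the same percentages over all RefSeq protein-coding genes, 67.6 and 58.6. Neuronal and B cell lists have dark bars at 18.2% and 16.7%, and the epithelial and mesenchymal list has both bars at 65.4%.

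Promoters differed between detected genes and genes not well above background. Of 20384 protein-coding genes with a RefSeq identifier, 16320 had a promoter sequence in the table used, of 300 bases. The median ratio of observed to expected CG was 0.73 over 11074 detected genes and 0.26 over 5246 genes not well above background. Without the chemosensory receptors, the second median was 0.33 over 4235 genes. The ratio exceeded 0.6 in 64.9% of the detected and 21.3% of the other promoters. TATAAA, searched on both strands, was in 9.16% and 20.9% of them. By signal, the median was 0.35 for detected genes at or below the chemosensory floor and 0.80 in the brightest of 4 equal groups above it. Within the liver lists the ratio followed the same order, with medians of 0.55 for 200 genes above the floor, 0.30 for 49 genes detected below it and 0.18 for 118 genes not well above background. Plasma carrier promoters had a low ratio on both sides of the call, 0.24 for 18 detected genes and 0.16 for 15 others, as the sequences of Alb, Afp and Afm above show.

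**Figure D5:**
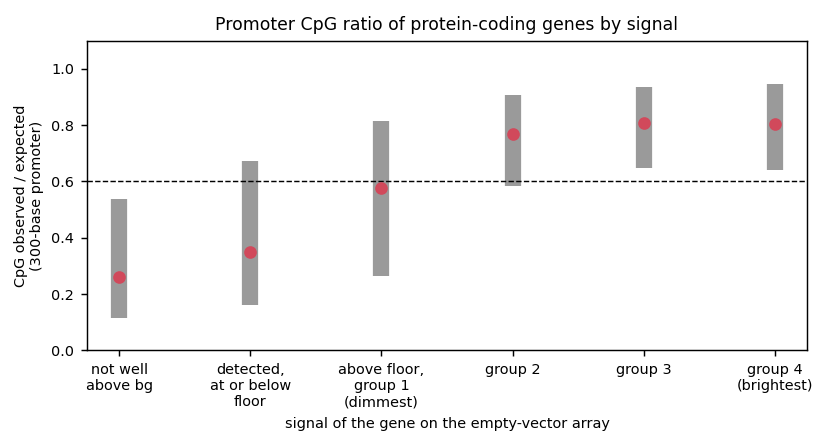
For 16320 protein-coding genes grouped by signal on the empty-vector array, points give the median ratio of observed to expected CG in the 300-base promoter and grey bars the range from the 25th to the 75th percentile. The dashed line marks a ratio of 0.6. The median is 0.26 for genes not well above background and 0.80 in the brightest of 4 equal groups above the floor.

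Some short motifs were more frequent in promoters of a list than in all promoters, given here as a description. CCAAT, the motif of the factor NF-Y, was in 38.9% of all 16320 promoters on either strand, in 21 of 30 mitosis promoters (70.0%), in 23 of 33 replication promoters (69.7%) and in 20 of 23 endoplasmic reticulum chaperone promoters (87.0%). TTTGAA, the cell cycle homology region, was in 15.6% of all promoters and in 20 of 30 mitosis promoters (66.7%). The interferon-stimulated response element core was in 3.41% of all and in 18 of 30 promoters of interferon-stimulated genes. TGATGNAA, the ATF4 element, was in 3.36% of all and in 8 of 26 promoters of the ATF4 list (30.8%). TTTCCCGC, an E2F motif, was in 1.54% of all and in 6 of 33 replication promoters (18.2%), but also in 4 of 22 telomere and repair promoters (18.2%). TTGCNCAA, a C/EBP motif, was in 2.76% of all and in 6 of 18 acute phase promoters (33.3%). It was also in 4 of 14 promoters of neutrophil and mast cell markers (28.6%). TGACNNNGC, the antioxidant element, was in 13.4% of all and in 7 of 29 antioxidant promoters (24.1%), but also in 9 of 26 promoters of the ATF4 list (34.6%), in 5 of 14 of macrophage markers (35.7%) and in 7 of 24 of immediate early genes (29.2%). TNGCGTG, the AHR element, was in 6.34% of all and in 1 of 9 AHR pathway promoters, and CAAAGTCCA, an HNF4 motif, was in 0.441% of all and in 5 of 34 P450 promoters (14.7%). A match is a string of letters and not a shown site.

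The promoters of Plk1, the mitotic kinase, and Hspa5, which encodes BiP, show the CCAAT and TTTGAA strings in place. They come from RefSeq, build GRCm38.p6, at chr7:122159185-122159484 (plus strand) and chr2:34771840-34772139 (plus). Capitals mark CCAAT, its reverse complement ATTGG, and TTTGAA.
Plk1: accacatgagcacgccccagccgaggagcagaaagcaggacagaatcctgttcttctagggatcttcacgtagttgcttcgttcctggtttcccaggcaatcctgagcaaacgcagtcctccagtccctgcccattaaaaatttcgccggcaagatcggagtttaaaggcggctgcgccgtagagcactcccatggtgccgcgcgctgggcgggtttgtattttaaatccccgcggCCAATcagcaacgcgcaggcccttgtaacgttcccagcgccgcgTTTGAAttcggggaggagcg
Hspa5: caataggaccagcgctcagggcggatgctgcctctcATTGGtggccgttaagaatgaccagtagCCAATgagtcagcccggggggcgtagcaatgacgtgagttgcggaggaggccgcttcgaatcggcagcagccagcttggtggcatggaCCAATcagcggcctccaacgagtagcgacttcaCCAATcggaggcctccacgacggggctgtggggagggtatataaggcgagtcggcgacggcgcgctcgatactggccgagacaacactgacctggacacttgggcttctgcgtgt
In Plk1, CCAAT lay 14 bases before the start and TTTGAA 31 bases after it. Hspa5 held 4 CCAAT strings on either strand, at -214, -186, -98 and -65 from the start. Both genes were bright on this array, at 27806 and 41533, each in a list of which nearly every member was detected.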

How the data were processed

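The authors deposited 1 Agilent Feature Extraction output per array (version 12.0.3.1, per the submitters' processing notes). Its processed signal is a linear intensity from which, per the file headers, spatial and multiplicative trends were removed, and its flags, deposited by the authors as 0 or 1, give outlier spots and spots well above background. The aligner of probe positions is not given in the sources used here, and the build is mm9 per the file headers.

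Of 62976 spots, 59305 were not controls. After 121 spots with a nonuniformity or population outlier flag were left out, 56600 probes remained. Repeated spots were averaged on the log2 scale, with the flag required on more than 50% of them, and each gene name took its brightest probe. Of the 36867 names, 24913 had 1 probe. Names were matched to RefSeq (GRCm38.p6) for 34614 probes by accession, 9170 by symbol and 283 by synonym, and 12533 probes were unmatched.

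Genes were sorted into 54 lists (1384 different genes with a probe, 13 symbols without one). The members and lists were chosen with earlier results of these data known. Genes named in the text are the 20 brightest, the key genes of each list, up to 5 of its brightest detected members, and its members not detected (all where at most 12, otherwise the key genes among them), with further members added after their values were seen. No test was made, since the group has 1 array. The error model of the processed signal gave detected genes a median error of 0.144 (log2), and it covers noise within the array only.

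Alternatives were a looser flag, every probe or the probe nearest the gene's median signal in place of the brightest, outliers kept, RefSeq symbols as names, the calls of the other arrays, normexp correction (limma 3.58.1, offset 50) and the deposited value table, whose signal is the processed signal divided by 580.3. The 95th and 99th percentiles of chemosensory receptor genes were added after the data were seen. The code for the gene calls was run on simulated data of 36867 genes, in which 200 of 200 raised genes were found and 0 calls differed. The simulation set the flag itself, so this outcome checks only that the code reads the flag. It says nothing on whether the flag marks expressed genes. Python 3.11.15, pandas 2.3.3 and R 4.3.3 were used. Some members of the lists are counted but not reported by name here.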

Additional observations from a re-analysis of the deposited data

How the results depend on the processing

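The number of detected genes was 20716 and stayed within 1.5 times that under the alternatives tried except the stricter chemosensory limit. It was 27172 with the looser flag for a positive and significant signal, 16736 where every probe had to be above background, 19352 with the probe nearest the gene's median signal, 20721 with outlier spots kept and 20703 with RefSeq symbols. Above the 95th percentile of chemosensory receptor genes it was 16440, and above the 99th percentile, a signal of 566, it was 10331. That last limit left 179 liver, 127 immune and 45 other-lineage genes, and requiring every probe left 89 other-lineage genes, in each case because fewer genes can pass. The counts for proliferation and stress stayed within 1.5 times under each alternative, at 144 and 133 at the lowest. The median percentiles of the themes moved by less than 5 points under the other probe choice, normexp correction and the deposited table.

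For single lists, 83 of 594 alternative values moved by more than 1.5 times (counts) or 5 percentile points (medians), 35 of them under the 99th percentile. Of the 362 detected key genes, 43 fell below the chemosensory floor, 80 had a probe that was not above background, and 21 were not detected on all 3 arrays. Of the genes detected here, 19335 (93.3%) were also detected on both other arrays, and the 610 detected on neither had a median signal of 17.9. No paired analysis was possible because each vector has 1 array and no test was made.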

Other observations

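Genes of early embryos and germ cells were detected in part on the empty-vector array. Of 21 genes of pluripotency and the 2-cell state, 15 were detected and 14 lay above the chemosensory floor, which is 66.7% against 58.6% of protein-coding genes. The 2-cell genes Gm4340 and Tcstv3 gave signals of 1705 and 1518, and Zscan4f and Zscan4c 286 and 204. Dppa4 gave 871 and 664 on its brightest probes. Pou5f1, which encodes OCT4 and has many retrocopies, gave 350, and Nanog, which also has retrocopies, 140 on one probe and 3.80 on the next. Sox2 (2.74), Zfp42 (2.98), Dppa3 (2.97), Dppa2 (9.17), Dazl (6.75) and Ddx4 (5.33) were not well above background.

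Gene families sorted by name gave contrasting shares, beside 67.6% of protein-coding genes detected and 58.6% above the chemosensory floor. All 78 mitochondrial ribosomal protein genes and all 46 NADH dehydrogenase subunit genes were detected, and so were 331 of 388 zinc finger genes named Zfp (85.3%). Of 98 potassium channel genes, 39 (39.8%) were detected, and of 64 defensins 12 (18.8%). Of 39 Hox cluster genes, 16 (41.0%) were detected and 12 (30.8%) lay above that floor, less than the protein-coding shares. The brightest were Hoxa10 at 3340, Hoxc9 at 1123 and Hoxb13 at 1031. Of 13 pregnancy-specific glycoprotein genes, 6 (46.2%) were detected, and Psg23 gave 241309 with its 1 probe. Of the major urinary protein genes, abundant products of adult male liver, 3 of 12 were detected.

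Markers of tissues that the label does not name were mostly dim. Of 22 neuronal markers 4 lay above the chemosensory floor, of 22 muscle markers 7, of 24 pancreas, kidney and gut markers 6, of 16 erythroid and megakaryocyte markers 4 and of 14 neutrophil and mast cell markers 3. These shares ran from 18.2% (neuronal) to 31.8% (muscle), against 58.6% of protein-coding genes. The brightest of them often rested on 1 probe: Snap25, a synaptic gene, gave 1608 and 2.80, and Tnnt2, cardiac troponin T, 3102 and 4.81. Cela1, an elastase, gave 6412 and 373 on its brightest probes, Lgr5 3352 and 77.9, and Elane, of neutrophil granules, 723. Hba-a1 of red cells gave 482 and 64.0 on its 2 probes. Actc1 of muscle gave 594 on its 1 probe, and Gad1 of neurons 506 with 3.18 on the next. Alas2 (3.07) and Hbb-bt (2.94) of red cells, Myod1 (10.7) and Ckm (2.77) of muscle, Syn1 (2.84) and Slc17a7 (2.72) of neurons, and Cdx2 (3.05) and Umod (3.15) of gut and kidney were not well above background.

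Of the 10 protein-coding genes placed on chromosome Y, 1 was detected. Kdm5d gave 137 on 1 of 6 probes and 3.50 on the next, and Ddx3y (2.93), Eif2s3y (4.0), Uty (3.02) and Sry (5.70) were not well above background. Xist gave 269 on its 1 probe, and Tsix 6.37, which was not called.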
